A study of Arabidopsis thaliana with 14 samples.

Results

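The 680 poly(A) sites described here lie between genes, more than 200 nt from every annotated gene on either strand of the 5 nuclear chromosomes of Arabidopsis thaliana. They were chosen from the poly(A) clusters of 4 libraries, with clusters on the same strand merged when the gap was 24 nt or less. Sites listed in at least 2 of the 4 tables were kept, which gave 23711 sites. Of these, 22628 lay in genes, 382 lay 1 to 200 nt outside genes, and 21 lay beside 12 genes whose positions were not at hand and were set aside. The rule used position and listing. Listing sets a lowest level that differs between tables, since the Col0 tables and cpsf70 replicate 2 begin at 3 TPM and cpsf70 replicate 1 goes down to 0.

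The study concerns CPSF70, a protein of the mRNA 3′ end cleavage complex that binds the RNA modification N6-methyladenosine (m6A), and where poly(A) tails are added. The groups used here are the cpsf70 mutant and the wild type Col0, with 2 poly(A) libraries each from 12-day seedlings, m6A sequencing of Col0 with 2 libraries from 14-day seedlings, and CLIP of a CPSF70 overexpression line with 2 libraries from 12-day seedlings. CLIP maps the RNA bound by a protein, here pulled down with an anti-FLAG antibody. The labels do not say whether replicates are separate plantings, so all p-values rest on the spread between these libraries, which may be technical. In the test of single sites (limma) that spread was pooled over all sites tested. In the authors' deposited table of RNA levels, the mutated locus AT1G30460 (CPSF30, which also encodes the longer CPSF70) stood at 0.542 and 0.593 FPKM in cpsf70 seedlings, against 5.58 and 4.87 FPKM in Col0 seedlings.

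RNA polymerase II transcripts end where the nascent RNA is cut and a poly(A) tail is added, usually a short way past the coding region. In plants the cut is directed by loose sequence elements, among them a far upstream element and an A-rich near upstream element. Tags between genes can mark long 3′ ends, precursors of small RNAs, unannotated transcripts and transposons, or A-rich stretches at which the reverse transcription primer starts. The tables do not tell these apart, and no genome sequence was used here.

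The level of a site is given in TPM, the tag abundance of a library as the authors normalised it. A single read was worth 0.257 and 0.164 TPM in cpsf70 replicates 1 and 2, against 0.319 and 0.308 TPM in Col0 replicates 1 and 2, which implies 3883738 and 6092325 reads, against 3137183 and 3248592 reads. The read values were inferred, and values of Col0 replicate 1 also fall on steps of 0.159 TPM, which would mean a greater depth if the smaller step were a read. In genes, 6.19% and 7.87% of values under 60 reads in cpsf70 and 6.22% and 5.29% in Col0 lay midway between whole multiples of the read value, within 0.03 read. The smaller step thus occurred at similar shares in all 4 tables, and the larger was taken as 1 read. On that reading the Col0 tables list clusters from 3 TPM upwards, about 9.41 and 9.75 reads. Both cpsf70 tables list the same 29896 clusters and share an internal name, and replicate 1 goes below 3 TPM. A listing in cpsf70 thus always fills 2 tables at once, whereas the Col0 tables list clusters independently.

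Most of the intergenic sites were narrow. Their median width was 9 nt, and 386 of 680 (56.8%) spanned at most 10 nt. Sites 1 to 200 nt outside genes had a median width of 16 nt, and sites in genes one of 49 nt, with 6.66% of them at most 10 nt wide. The difference was also present at matched level. Among sites with a mean of 10 to 30 TPM listed in all 4 tables, the median width was 14 nt for 85 intergenic sites and 75 nt for 4704 sites in genes.

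The sites were spread over all chromosomes and both strands. Chromosomes 1 to 5 held 156, 132, 124, 93 and 175 of them, with 347 on the plus strand and 333 on the minus strand. They fell into 624 gaps between genes when gaps were counted by strand, and 580 of those gaps held a single site. The fullest, on the plus strand of chromosome 3 between AT3G30455 and AT3G30460, held 4 sites, which stood 6594 to 13651 nt past AT3G30455. Its strongest site, chr3:12096747-12096812, had 3.67 and 6.90 TPM in cpsf70, against 8.15 and 25.6 TPM in Col0.

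The room available to such sites, the bases more than 200 nt from every gene span, came to 32.6 Mb, and 614 of 21042 gaps long enough to hold one (2.92%) did so. There were 20.9 intergenic sites per Mb of that room, against 296 sites per Mb of gene span. The density was 29.3 sites per Mb in gaps of 401 to 1000 nt and 13.6 per Mb in gaps over 10000 nt, with values between these in the 3 length classes between. The median level of a site, averaged over the 4 libraries with an absent value as 0, stayed between 3.66 and 4.83 TPM across these gap lengths.

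Upstream of a site, against its direction of transcription, the nearest gene span lay at a median of 1237 nt, with quartiles of 568 and 2303 nt. The span ahead of the site lay at a median of 1230 nt. A gene lay within 1000 nt behind 301 sites (44.3%) and more than 5000 nt behind 52 sites. The median distance was 1351 nt for the 179 sites listed in the cpsf70 tables only, and 1072 nt for the 137 listed in the Col0 tables only. Distances behind and ahead were thus about equal over the sites.

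**Figure D1:**
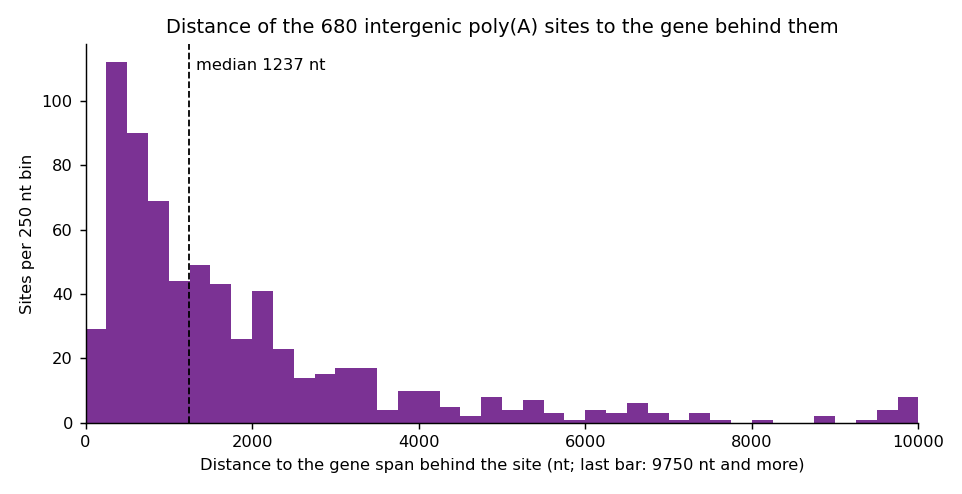
Number of intergenic poly(A) sites (vertical axis) by distance in nt to the gene span behind them (horizontal axis, bins of 250 nt, dashed line at the median of 1237 nt). Most sites lie within a few kilobases of a gene, and 52 of 680 lie beyond 5000 nt, some of them collected in the last bar.

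The strand of the gene behind could be read from poly(A) tags at gene ends for 104 of the 301 sites with a gene within 1000 nt. It matched the strand of the site in 56 cases and was the opposite in 48. For the other 197 sites it was unknown, and only 3 of their genes carried tags at all. Throughout, a site is called past or before a gene along its own strand, whatever the strand of the gene. The gene behind was protein coding for 468 sites (68.8%, against 72.4% of all genes) and a pseudogene for 97 sites (14.3%, against 10.3%). It was a long noncoding RNA gene for 52 sites (7.65%, against 9.19%).

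The 56 sites past a gene on their own strand belonged to 52 genes and can be set beside the tags of those genes. In these sums a site missing from a table adds nothing there. Over the 52 genes, the intergenic sites held a median of 7.47% and 16.6% of both together in cpsf70, against 12.0% and 14.9% in Col0. Summed over these genes the share was 3.57% and 5.39% in cpsf70, against 4.16% and 5.48% in Col0. By both measures the genotypes overlapped. Over the 16 genes with tags of gene and site in every library, the median was 15.6% and 23.1% in cpsf70, against 25.2% and 23.6% in Col0. Those 16 had to reach the lowest listed level, which cpsf70 replicate 1 does not share. AT3G24480 carried 3 such sites that together held 27.7 and 22.7 TPM in cpsf70, against 33.2 and 32.1 TPM in Col0. The gene itself held 4.12 and 4.60 TPM in cpsf70, against 7.39 TPM in Col0 replicate 2 and no listing in Col0 replicate 1. Of the listed tags around this gene, 87.0% and 83.1% in cpsf70 and 81.3% in Col0 replicate 2 thus lay past its annotated span.

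FAB1 (AT1G74960), which encodes an enzyme of fatty acid synthesis, had an intergenic site with 9.48 and 21.3 TPM in cpsf70, against 22.7 and 18.6 TPM in Col0. Its own sites held 51.5 and 39.7 TPM in cpsf70, against 52.6 and 46.5 TPM in Col0. EIN3 (AT3G20770), a transcription factor of ethylene signalling, had one with 7.98 and 7.35 TPM in cpsf70, against 7.97 and 5.23 TPM in Col0, which is 12.8% and 14.3% of its tags in cpsf70 and 12.0% and 10.8% in Col0. The EIN3 share was steady over the 4 libraries. The intergenic site of ATU2AF35A (AT1G27650), which encodes a subunit of a splicing factor, was listed in Col0 only, at 9.13 and 4.68 TPM.

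Small RNA genes were among the neighbours, and 15 sites had a miRNA, tRNA, snoRNA or other short noncoding RNA gene within 1000 nt behind them. The site 441 nt past MIR165b (AT4G00885), a miRNA that directs cleavage of class III homeodomain leucine zipper mRNAs, was chr4:370453-370456 on the plus strand. It was listed in Col0 only, at 188 and 174 TPM, and was the most abundant of the sites listed only there. The strand of MIR165b was unknown here, so its transcript and the site were not joined.

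Another site, chr1:6221051-6221149, lay 210 nt past MIR159b, a miRNA that targets GAMYB-type transcription factors. It had 2.57 and 3.20 TPM in cpsf70, against 5.42 and 3.08 TPM in Col0. Past the snoRNA gene AT3G47348, chr3:17446408-17446531 had 15.7 and 13.8 TPM in cpsf70, against 11.8 and 11.1 TPM in Col0. Past the snoRNA gene AT2G08765, chr2:15029128-15029226 had 12.6 and 7.39 TPM in cpsf70, against 17.9 and 12.3 TPM in Col0. These 3 sites were wide, at 99 to 124 nt, and none of them passed the test between genotypes (limma adjusted p of at least 0.992).

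Of the 680 sites, 253 (37.2%) were listed in all 4 tables, against 58.6% of sites in genes. The cpsf70 tables alone listed 179 sites, and 29 of these reached 3 TPM in both cpsf70 replicates. The Col0 tables alone listed 137 sites. A further 46 were listed in cpsf70 and Col0 replicate 1, and 65 in cpsf70 and Col0 replicate 2. Of the 543 sites listed in cpsf70, 249 stood below 3 TPM in replicate 1 and 76 of those were at 0. Because of the shared cpsf70 list, the counts of 179 and 137 do not compare the genotypes.

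Among sites listed in cpsf70 only, chr1:15513507-15513522, 746 nt past the pseudogene AT1G41743, had 144 and 223 TPM. Another, chr2:8230425-8230439, 670 nt past AT2G18970, had 160 and 127 TPM. Both replicates were high at these sites. In the other direction, chr5:15805308-15805328 past AT5G39480 was listed in Col0 only, at 66.5 and 85.3 TPM. The site chr2:11058586-11058599 lay 345 nt from ELF3, a component of the circadian clock transcribed from the opposite strand, and had 95.8 and 27.4 TPM in Col0. Others, chr1:5083275-5083276 past SDS and chr5:12907785-12907806 past the pseudogene AT5G34540, had 7.46 and 131 TPM and 18.4 and 65.2 TPM in Col0 replicates 1 and 2. Absence from a Col0 table means a level under 3 TPM in that library or a cluster not drawn there.

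The 253 sites listed in all 4 tables had to reach 3 TPM in both Col0 libraries and in cpsf70 replicate 2, but not in cpsf70 replicate 1. There 33 of the 253 (13.0%) stood below 3 TPM, against 394 of 13258 sites in genes (2.97%). This listing lets in sites that are low in a cpsf70 library and none that are low in Col0, and so bears on every comparison of the genotypes over these sites. Their median level was 6.89 and 6.85 TPM in cpsf70, against 7.76 and 10.8 TPM in Col0. The 13258 sites in genes had medians of 13.1 and 11 TPM in cpsf70, against 12.8 and 10.6 TPM in Col0. The levels of intergenic sites repeated poorly between libraries. On the log2(TPM + 1) scale, the replicates correlated across the 253 sites with Pearson's r of 0.579 in cpsf70 and 0.585 in Col0, and across sites in genes with 0.916 and 0.915. Between genotypes, r was 0.414 to 0.654 over the intergenic sites, so by r libraries of one genotype were no more alike than libraries of different genotypes. On the same scale, 3.16% of the intergenic sites were over 4-fold apart between the Col0 replicates, the least of all pairs. The share was 7.51% between the cpsf70 replicates and 5.53% to 11.9% between genotypes. These correlations are over sites that share their libraries and are descriptions.

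**Figure D2:**
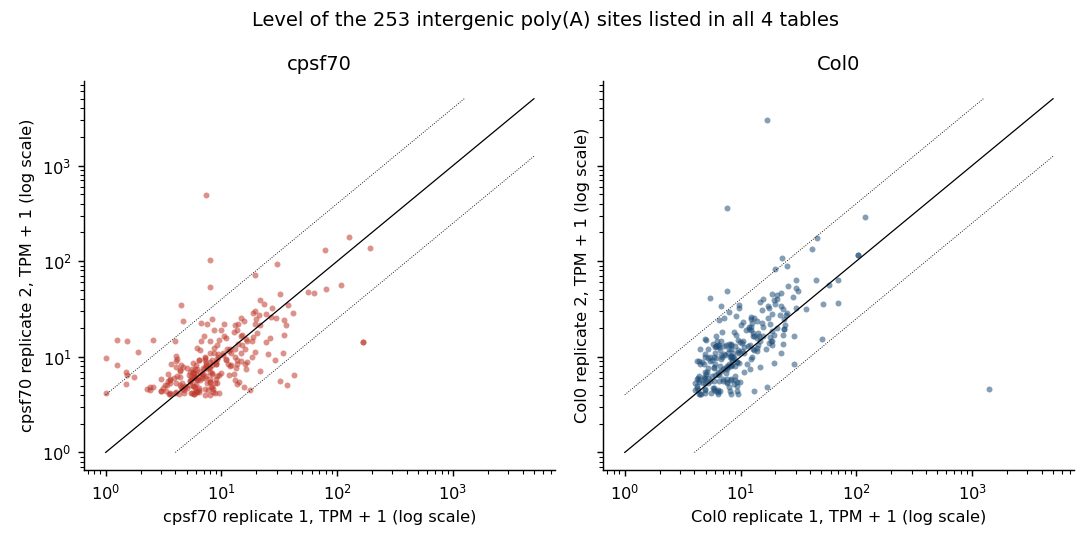
Level of each of the 253 intergenic sites listed in all 4 tables in replicate 2 (vertical axis) against replicate 1 (horizontal axis), as TPM + 1 on log scales, for cpsf70 (left) and Col0 (right). The solid line marks equal values and the dotted lines a 4-fold difference. Single sites reach 488 TPM in cpsf70 replicate 2, and 2990 and 1400 TPM in Col0 replicates 2 and 1, while standing far lower in the other replicate.

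One property of the values set intergenic sites apart. Values below 60 reads should be whole multiples of what a read is worth if every read is counted once. In genes, 80.7% and 74.6% of such values in cpsf70 and 81.2% and 80.6% in Col0 lay within 0.03 read of a whole number. At intergenic sites the shares were 26.8% and 15.9% in cpsf70, against 21.2% and 21.6% in Col0. Sites 1 to 200 nt outside genes lay between, at 45.4% and 32.9% in cpsf70, against 37.9% and 38% in Col0. Over all tables that listed it, an intergenic site had only whole-read values in 45 of 680 cases (6.62%), against 54.8% of sites in genes. This count per site has no limit of 60 reads and takes 0 as whole, so it says little about abundant sites. Among sites listed in all 4 tables it was 3.47% against 61.5% at a mean of 3 to 10 TPM. At 30 TPM or more it was 0% against 19.0%.

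A pair of sites made the fractional values visible. The sites chr5:9212484-9212488 and chr5:9218624-9218628, whose starts are 6140 nt apart, had the same 166 TPM in cpsf70 replicate 1, the same 103 TPM in Col0 replicate 1 and the same 114 TPM in Col0 replicate 2. They differed only in cpsf70 replicate 2, with 13.3 and 13.4 TPM. Their values are therefore not independent of each other. The sources used here do not state how reads that match several places were assigned.

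The summed share of a library that fell on intergenic sites did not separate the genotypes. It was 0.589% and 1.41% of the listed TPM in cpsf70, against 0.845% and 1.38% in Col0, with means of 0.997% ± 0.578 and 1.11% ± 0.377 (SD, n = 2 each). The difference, cpsf70 minus Col0, was −0.114 percentage points (exact 2-sided permutation test, p = 1, where the smallest p that 2 against 2 libraries allow is 0.333). Each genotype had a low library (replicate 1) and a high one (replicate 2). Counting only sites listed in all 4 tables, the shares did not overlap. They were 0.471% and 0.581% in cpsf70, against 0.651% and 1.14% in Col0 (exact permutation p = 0.333). The uneven listing in cpsf70 replicate 1 bears on that setting.

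A few sites set these sums. In Col0 replicate 2, the site chr5:8594624-8594644 held 28.7% of the TPM of all intergenic sites. In cpsf70 replicate 2, chr3:15727504-15727526 held 16.9%, and in Col0 replicate 1, chr1:10573967-10573999 held 22.0%. Without these 3 sites the difference turned to 0.0443 percentage points (exact permutation p = 1). Without the 36 sites that were high in a single library, the shares were 0.561% and 0.783% in cpsf70, against 0.645% and 0.927% in Col0, a difference of −0.114 points (exact permutation p = 0.667).

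**Figure D3:**
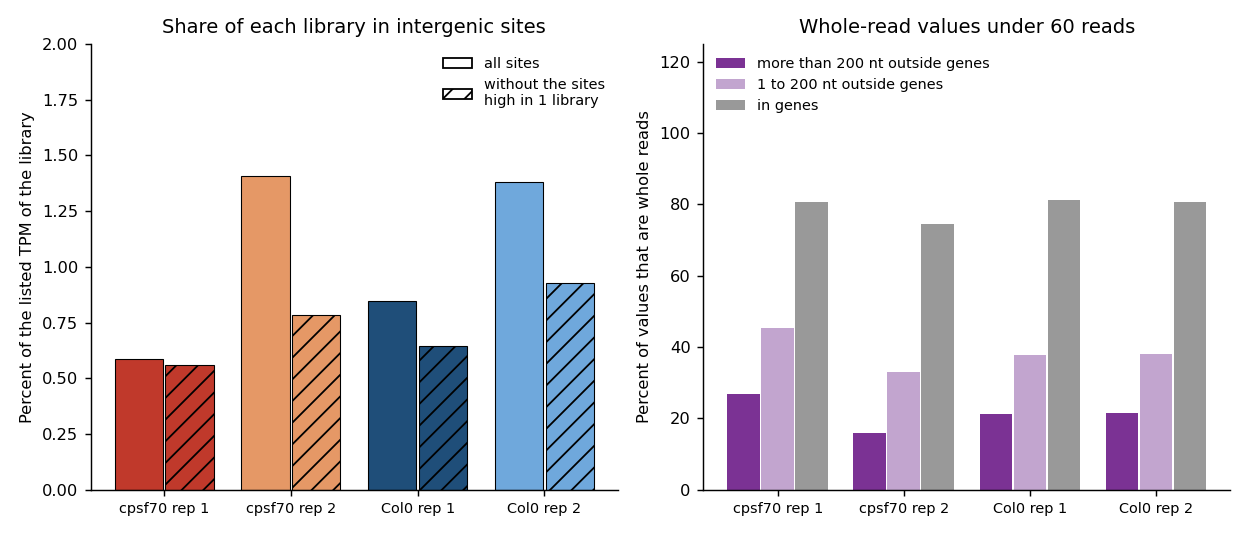
Left, percent of the listed TPM of each library that lay in intergenic sites, with all 680 sites (plain bars) and without the 36 sites high in a single library (hatched bars). Right, percent of values under 60 reads that are whole reads, for sites more than 200 nt outside genes, 1 to 200 nt outside genes and in genes. In the left panel the shares of cpsf70 and Col0 overlap, and intergenic sites have the lowest share of whole-read values in every library.

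Between the genotypes, 17 of the 253 intergenic sites tested (6.72%) differed (limma, adjusted p under 0.05): 5 stood higher and 12 stood lower in cpsf70. The 2 directions are not on equal terms, because of the listing below 3 TPM in cpsf70 replicate 1 alone, and 7 of the 12 stood below 1 TPM there, a level that no listed Col0 value can have. Among the 220 sites with at least 3 TPM in all 4 libraries, limma called 12 (5.45%, against 2.13% of 13221 sites in all), 5 higher and 7 lower. Over all 13668 sites tested, 301 (2.2%) were called, 84 (0.615%) higher and 217 (1.59%) lower. At an unadjusted p under 0.05 there were 48 intergenic sites and 1209 sites in all. The values of cpsf70 lay wholly above those of Col0 at 23 intergenic sites (9.09%, against 22.5% of all sites) and wholly below at 87 (34.4%, against 17.8%). Fewer cells that make a transcript and less of it per cell cannot be told apart in whole seedlings.

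Across the 253 sites the log2 change, cpsf70 minus Col0, had a median of −0.32, and 189 sites (74.7%) were below 0. The same values were −0.22 and 71.6% for sites 1 to 200 nt outside genes, and 0.05 and 45.3% for sites in genes. With at least 3 TPM required in all 4 libraries they were −0.26 and 71.4% for 220 intergenic sites, and 0.07 and 43.8% for sites in genes. Col0 replicate 2 had the highest intergenic median. Without that library the median was −0.17 with 64.0% of intergenic sites below 0, beside −0.07 and 56.4% for sites in genes. Leaving out any other library kept the intergenic median between −0.51 and −0.32, and rescaling by median ratios gave −0.37. Only 9 of the 253 sites had whole-read values in all 4 tables. Their median was −0.30, with 6 of 9 below 0.

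After rescaling by median ratios limma called 0 intergenic sites (32 at an unadjusted p under 0.05), and 0.249% of all sites. The log2 changes of the 17 sites moved little on rescaling, while their p-values rose. At chr5:8594624-8594644 the change went from −4.14 to −4.19 (limma adjusted p from 4.2e-14 to 0.469). At chr3:20869609-20869612 it went from 2.19 to 2.13 (limma adjusted p from 0.000934 to 0.178). With the replicate number as a block it also called 0 (55 at an unadjusted p under 0.05), and 0% of all sites. The calls also rested on single libraries. None of the 17 passed with every library left out in turn. Without cpsf70 replicate 1, 5 of the 17 passed, without cpsf70 replicate 2, 11, without Col0 replicate 1, 14, and without Col0 replicate 2, 6. None had whole-read values in all 4 tables, and the 7 called lower with less than 1 TPM in cpsf70 replicate 1 had 5.09 to 14.1 TPM in cpsf70 replicate 2. The fit without rescaling or block gave all sites a single standard error of 0.49 on the log2 scale, so a site that is extreme in 1 library can pass. This error was pooled over all sites tested, most of them in genes, where replicates correlated better than at intergenic sites. The shares called among intergenic sites and among all sites are therefore not on equal terms.

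Higher in cpsf70 with both replicates above both Col0 replicates was chr5:13500476-13500512 on the plus strand, 2566 nt past the pseudogene AT5G35240. It had 124 and 177 TPM in cpsf70, against 35.8 and 30.5 TPM in Col0 (log2 change 2.13, SE 0.49, limma adjusted p = 0.00144). It was the most abundant of the sites called higher with groups that did not overlap, and it carried a CLIP peak in replicate 1 only. Without cpsf70 replicate 2 and without Col0 replicate 2 its limma adjusted p was 0.097 and 0.0526.

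Next came chr3:20869609-20869612, 585 nt past AT3G56260, with 18.6 and 29.3 TPM in cpsf70, against 3.88 and 4.88 TPM in Col0 (log2 change 2.19, limma adjusted p = 0.000934). It passed without each library except cpsf70 replicate 2, where the adjusted p was 0.0996. At chr1:11242300-11242303, 826 nt past AT1G06437, the levels were 14.1 and 15.8 TPM in cpsf70, against 3.19 and 4 TPM in Col0 (log2 change 1.80, limma adjusted p = 0.0164). Its groups did not overlap, and it passed in none of the 4 fits that left out a library (limma adjusted p 0.0846 to 0.188).

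The last of the sites called higher were less even. At chr1:5633776-5633780, 4999 nt past AT1G16500, the levels were 32.8 and 9.86 TPM in cpsf70, against 4.57 and 3.18 TPM in Col0 (log2 change 1.99, limma adjusted p = 0.00442; 0.792 without cpsf70 replicate 1). At chr4:12990003-12990021, 830 nt past GA20OX1, an enzyme of gibberellin synthesis, they were 6.33 and 488 TPM in cpsf70, against 10.7 and 19.3 TPM in Col0. That call rested on cpsf70 replicate 2: the log2 change was 1.95 with it and −1.08 without it.

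The site with the largest fall was chr5:8594624-8594644 on the plus strand, 1023 nt past AT5G24940 and 565 nt before CYP71A15, a cytochrome P450 gene. It had 6.44 and 20.8 TPM in cpsf70, against 15.8 and 2990 TPM in Col0 (log2 change −4.14, limma adjusted p = 4.2e-14). The groups overlapped, and without Col0 replicate 2 the change was −0.40 (limma adjusted p = 1). The value of 2990 TPM made this the most abundant intergenic site of all.

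Lower in both cpsf70 replicates was chr3:13072351-13072366, 667 nt before AT3G32060, with 8.24 and 4.30 TPM in cpsf70, against 21.7 and 106 TPM in Col0 (log2 change −2.82, limma adjusted p = 2.37e-06; 0.22 without Col0 replicate 2). At chr4:5837783-5837796, 2370 nt past the cysteine-rich peptide gene LCR36, the levels were 3.45 and 34 TPM in cpsf70, against 45.0 and 172 TPM in Col0. Its log2 change was −2.84 (limma adjusted p = 1.88e-06; 0.536 without cpsf70 replicate 1). In both cases the higher Col0 library was replicate 2.

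The sites called lower included 3, chr1:18338173-18338186, chr1:18345806-18345826 and chr1:18423264-18423272, on one stretch of the minus strand of chromosome 1. From each to the next were 7619 nt and 77437 nt, which was noticed after their values were seen. In the longer interval lay chr1:18421476-18421478, listed in Col0 only at 5.74 and 53.9 TPM and so not tested. The first of the 3 called lay 655 nt past the pseudogene AT1G49550 on the same strand. The last lay 1306 nt past RGE1, a transcription factor gene of the endosperm. Their log2 changes were −2.01, −2.47 and −2.47. In cpsf70 they had 0.515 and 5.40, 0.257 and 7.30, and 0.772 and 5.09 TPM, against 7.76 and 17.1, 14.6 and 19.7, and 12.1 and 24.4 TPM in Col0. None of the 3 passed without cpsf70 replicate 1 (adjusted p 0.293 to 1).

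Among the rest of the sites called lower, chr3:7289562-7289581, 3120 nt past UCNL and 10863 nt before PLT1, a transcription factor of the root meristem, had 0 and 8.62 TPM in cpsf70, against 13.3 and 15.6 TPM in Col0. At chr5:21575684-21575687, 1355 nt past SWEET3 of the sugar transporter family, the levels were 0.515 and 13.5 TPM in cpsf70, against 19.5 and 19.0 TPM in Col0. The sites chr5:20121655-20121664, chr5:3480858-3480862, chr5:26482478-26482521 and chr5:6438791-6438796 had log2 changes of −1.95, −1.94, −1.68 and −1.63. Without cpsf70 replicate 1 none of these 6 passed.

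**Figure D4:**
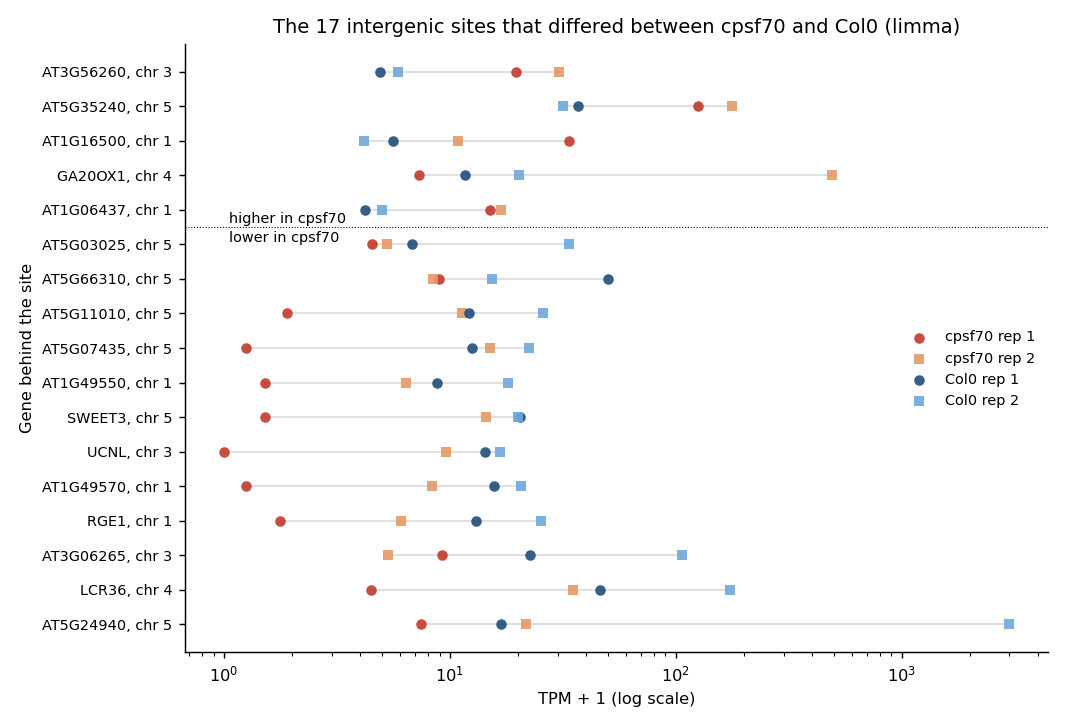
TPM + 1 (horizontal log axis) in each library for the 17 intergenic sites called between cpsf70 and Col0, 1 row per site named by the gene behind it, with sites called higher in cpsf70 above the dotted line and those called lower below it. Circles are replicate 1 and squares replicate 2. In 7 of the 12 rows called lower, cpsf70 replicate 1 lies below 1 TPM, and in the GA20OX1 and AT5G24940 rows a single library is far to the right.

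Sites high in a single library were counted with a fixed rule: the highest library held at least 5 times the next, with the next taken as no less than 3 TPM. There were 36 such sites of 680 (5.29%), against 4.45% of sites 1 to 200 nt outside genes and 0.99% of sites in genes. At a mean of at least 10 TPM the shares were 13.1% of 145 intergenic sites, 12.6% of 87 sites 1 to 200 nt outside genes and 1.72% of 7965 sites in genes. The ratio just inside the rule was 5.09 and the one just outside was 4.87.

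Of the 36 sites, 1 was high in cpsf70 replicate 1 and 26 in cpsf70 replicate 2, against 2 in Col0 replicate 1 and 7 in Col0 replicate 2. At 25 of the 26, cpsf70 replicate 1 stood below 3 TPM. The listing rule bears on these counts. A site found in cpsf70 replicate 2 alone is listed in both cpsf70 tables and enters. A site found in a single Col0 library does not enter. A further 20 sites between genes were listed in Col0 replicate 1 alone with at least 15 TPM, and 45 in Col0 replicate 2 alone. The 4 counts therefore give no order of the libraries. By the read values inferred above, cpsf70 replicate 2 was also the deepest library unless the smaller step is a read in Col0 replicate 1, and the part of depth was not tested.

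The highest was chr3:15727504-15727526 on the minus strand, 650 nt past AT3G43870, with 0.438 and 1670 TPM in cpsf70 and no listing in Col0. Next was chr3:4103156-4103187, 2622 nt past ASML2, with 2.32 and 1010 TPM in cpsf70 and a listing in Col0 replicate 2 only, at 4 TPM. The value in 1 library was 557 and 252 times the next, with the next taken as no less than 3 TPM. Both spanned a short stretch, 23 and 32 nt.

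A group of sites had a high value in cpsf70 replicate 2 and at most 0.515 TPM in replicate 1, with no listing in Col0. At chr3:5668616-5668628, between KINESIN-13A, a microtubule motor gene on the opposite strand, and TCTP, the levels in cpsf70 were 0.3 and 216 TPM. At chr4:10517683-10517694, 3565 nt before CYP707A1, an enzyme that breaks down abscisic acid, they were 0 and 138 TPM. At chr1:4944755-4944772, 3423 nt past HB31, they were 0 and 124 TPM, and at chr1:2520039-2520049, 3974 nt before the nitrate transporter gene NRT2:1, 0 and 87.2 TPM. Sites at chr1:17846570-17846596 and chr2:17571566-17571585 followed with 65.9 and 54.2 TPM in cpsf70 replicate 2.

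In Col0, chr1:10573967-10573999, 602 nt past NCED5, an enzyme of abscisic acid synthesis, had 106 and 55.2 TPM in cpsf70, against 1400 and 3.58 TPM in Col0. The sites high in 1 library held 1.38% and 43.4% of the TPM of all intergenic sites in cpsf70 replicates 1 and 2, against 22.9% and 32.4% in Col0 replicates 1 and 2, counting for each library its own high sites. None of the 36 had an m6A or CLIP peak, 2 had only whole-read values, and their median width was 12.5 nt.

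Other abundant sites were high in more than 1 library. The most even of the 10 most abundant, chr3:21617987-21618000 on the plus strand, lay 1804 nt past AT3G58430 and had 190 and 135 TPM in cpsf70, against 118 and 287 TPM in Col0. It was not called. At chr3:6164185-6164220, 732 nt before WOX1, a homeobox gene of leaf development, the levels were 7.04 and 102 TPM in cpsf70, against 6.57 and 361 TPM in Col0. Here replicate 2 was high in both genotypes. The sites chr5:5836979-5836985 and chr1:10529038-10529060 were each missing from a Col0 table: the first had 0 and 300 TPM in cpsf70 and 140 TPM in Col0 replicate 2, the second 2.1 and 225 TPM in cpsf70 and 185 TPM in Col0 replicate 1.

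m6A and CLIP peaks were rare at intergenic sites. A peak was counted where it overlapped the site or the 200 nt before it, and the peak lists carry no strand. By these rules the searched stretch of an intergenic site never touches a gene span, while that of the other sites can. The rules thus bear on the order of the shares. An m6A peak of either replicate lay at 10 of 680 sites (1.47%, exact 95% binomial interval 0.707 to 2.69), against 71 of 382 sites 1 to 200 nt outside genes (18.6%) and 13207 of 22628 sites in genes (58.4%). A CLIP peak lay at 19 sites (2.79%, interval 1.69 to 4.33), against 53 (13.9%) and 8091 (35.8%). The intervals cover counting error only.

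The order held in every peak replicate. With m6A replicates 1 and 2, the shares were 1.32% and 1.47% of intergenic sites, 17.5% and 17% of sites 1 to 200 nt outside genes, and 56.8% and 51.4% of sites in genes. The CLIP tables name their replicates internally in the opposite order to the sample titles, and the titles were followed. With CLIP replicates 1 and 2 they were 2.21% and 1.62%, 11.8% and 9.42%, and 27.5% and 27.4%. The order also held at a mean of at least 10 TPM, where m6A peaks lay at 2.76% of 145 intergenic sites and 70.4% of sites in genes, and CLIP peaks at 4.83% and 53.9%. Among the 45 intergenic sites with only whole-read values, 2 had an m6A peak (4.44%) and 5 a CLIP peak (11.1%), against 63.6% and 33.7% of such sites in genes.

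**Figure D5:**
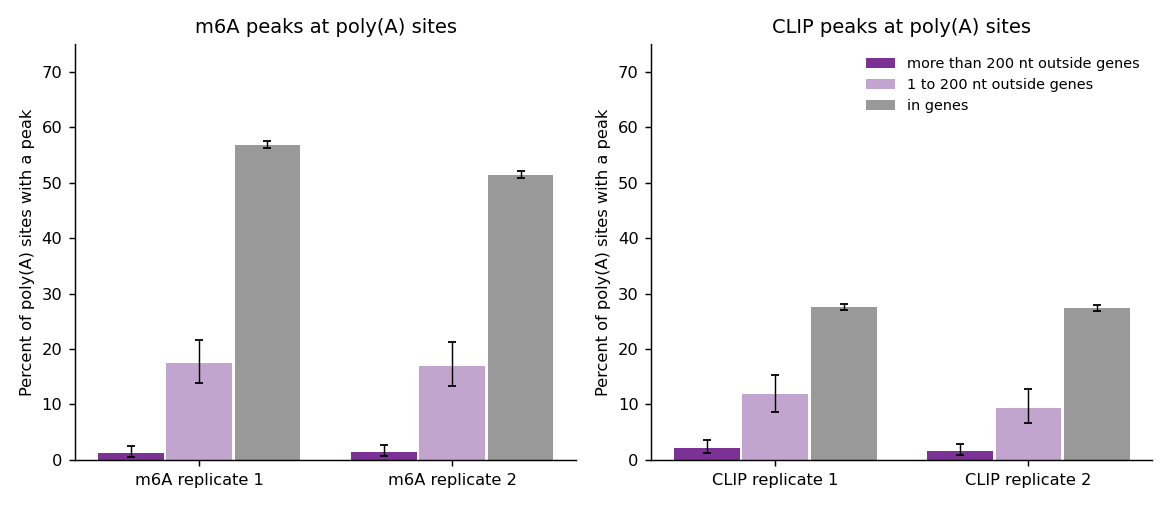
Percent of poly(A) sites with an m6A peak (left) or a CPSF70 CLIP peak (right) in the site or the 200 nt before it, by replicate of the peak list, for sites more than 200 nt outside genes (n = 680), 1 to 200 nt outside genes (n = 382) and in genes (n = 22628). Bars carry exact 95% binomial intervals. Intergenic sites stand at 1.32% to 2.21% in all 4 peak lists.

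The peaks that did lie at intergenic sites differed between the assays. Of the 10 sites with an m6A peak, 9 had one in both replicates, and at 6 of them the peak reached into a gene. Of the 19 sites with a CLIP peak, 7 had one in both replicates, and at 1 of them the peak reached a gene. The m6A peaks had a median length of 357 and 355 nt and the CLIP peaks one of 52 and 53 nt over all nuclear peaks, so a longer peak covers more ground. All folds below are the authors' fold enrichments of single peaks.

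The most abundant site with an m6A peak was chr5:4791703-4791817 on the plus strand, 552 nt past the pseudogene AT5G14810, with 61.4 and 45.4 TPM in cpsf70, against 68.7 and 62.1 TPM in Col0. Its m6A peaks had folds of 4.76 and 6.69, and CLIP replicate 2 had a peak of fold 3.61. Of the 3 intergenic sites past AT3G24480, chr3:8900748-8900821 and chr3:8900879-8900909, shared m6A peaks with folds of 2.29 and 1.90. The first had 17.9 and 15.3 TPM in cpsf70, against 18.5 and 15.8 TPM in Col0, the second 4.38 and 4.1 TPM in cpsf70, against 7.65 and 8.93 TPM in Col0. Past the pseudogene AT2G11240 on the same strand, chr2:4484321-4484432 had m6A peaks with folds of 4.38 and 4.32 and 12.6 and 8.29 TPM in cpsf70, against 10.5 and 12.0 TPM in Col0.

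With CLIP peaks in both replicates, chr5:17475132-17475154 had the highest folds, 11.8 and 11.6. It lay 647 nt past LURE1.2, a pollen tube attractant peptide gene, and was listed in Col0 only, at 6.69 and 4 TPM. The snoRNA neighbour chr3:17446408-17446531 followed with folds of 7.84 and 6.37. At chr1:24190879-24190956, 853 nt past the cysteine-rich peptide gene SCRL2, the folds were 8.19 and 5.77 and the levels 29.2 and 92.5 TPM in cpsf70, against 24 and 87.5 TPM in Col0. Past PGK on the same strand, chr1:29923526-29923532 had folds of 4.72 and 6.26 and 4.89 and 6.48 TPM in cpsf70, against 3.83 and 5.08 TPM in Col0.

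A single intergenic site had m6A and CLIP peaks in both replicates. It was chr2:6234-6252 on the minus strand, 289 nt before the ribosomal RNA gene AT2G01020, listed in Col0 only at 3.07 and 5.41 TPM. AT2G01021 lay 319 nt behind it on the opposite strand, with poly(A) tags of 7841 TPM at its end, averaged over the 4 libraries. Folds at the site were 2.04 and 1.44 for m6A and 2.95 and 2.59 for CLIP. The peaks carry no strand, and which transcript they belong to was not tested. No intergenic site called between the genotypes had an m6A peak, and the 1 with a CLIP peak, chr5:13500476-13500512, had it in replicate 1 with a fold of 2.14.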

How the data were processed

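Poly(A) sites were sequenced by A-seq2, which primes cDNA on the poly(A) tail. For every library the authors deposited a table of clusters whose TPM column carries that unit in its header. For m6A and CLIP, the authors deposited a peak list per replicate that gives, per the file headers, the fold enrichment of a peak and its −log10 p-value, with no strand. The control used in peak calling is not stated there, and 2 CLIP samples of Col0 were not analysed here. The RNA table of selected genes gives FPKM, a fold and a p-value as the authors deposited them, and only its FPKM values and folds were used. Per the submitters' processing notes, TAIR10 was the genome and MACS2 2.2.5, HISAT2 2.1.0 and cutadapt 1.18 were the tools. Site coordinates are those of the authors.

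Nuclear clusters were merged per strand at gaps of at most 24 nt and their TPM summed per library. Genes are those of RefSeq assembly TAIR10.1, used for names and distances, with 37887 nuclear genes that have positions. The table has no strand. A gene was given the strand that held at least 90% of the poly(A) tags in its last 40% on either side and 200 nt beyond, which gave a strand to 12451 genes. Differences were tested with limma 3.58.1 (R 4.3.3, eBayes, 2-sided, no block) on log2(TPM + 1) over all 13668 sites listed in all 4 tables, with 2 libraries per genotype, Benjamini-Hochberg adjustment and a threshold of 0.05. Changes on this scale understate those of low sites. Calls were tested on simulated data that gave every site the same spread. That test does not cover sites with a larger or uneven spread between libraries. What 1 read is worth in TPM was inferred from the steps between low values. Too few values were whole reads for a test on counts. Summaries used Python 3.11.15, pandas 2.3.3 and scipy 1.17.1.

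The sites named are those called, the 10 most abundant, the 10 with the highest ratio of a library to the next, the site with both kinds of peak in both replicates, and the 5 most abundant listed in 1 genotype only. Others (past a gene on the same strand, past a small RNA gene, with a peak, or in a shared gap) were chosen after their values were seen. The members, rules and lists were chosen with earlier results of these data known. Alternatives were other pseudocounts, scaling, gaps, distances, filters, peak rules and left-out libraries.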

Additional observations from a re-analysis of the deposited data

How the results depend on the processing

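Of the 52 alternatives run, 31 left the result on its side and within 1.5 times or 1 SD of its value. The count of 17 intergenic sites called between cpsf70 and Col0 was 29 with a pseudocount of 3, 180 (50 higher, 130 lower, of 680 tested) with absent values set to 0, where 23.4% of all sites were called, and 0 after rescaling by median ratios (32 at an unadjusted p under 0.05). It was 0 among the 9 sites with only whole reads (1 at an unadjusted p under 0.05), and 7 to 24 with a library left out. With the replicate number as a replicate block it was 0 (55 at an unadjusted p under 0.05). Over all 13668 sites tested, most of them in genes, deviations of libraries with the same number correlated with 0.198. That is a single value for 2 numbers, so the numbers were not taken to pair the libraries. Over the 253 intergenic sites, libraries of different genotype with the same number had Pearson's r of 0.65 and 0.632. Those with different numbers had 0.654 and 0.414, and replicates of a genotype 0.579 and 0.585. Whether the numbers pair the libraries at intergenic sites alone was not tested. The share of TPM, −0.114 percentage points, turned to 0.0443 without the 3 most abundant sites, to 0.00357 with only whole-read sites, and to 0.294 without cpsf70 replicate 1 and 0.152 without Col0 replicate 2. It was −0.371 with only sites listed in all 4 tables, and ran from −0.523 to 0.294 with a library left out. The pairs under the replicate block gave −0.256 and 0.0272.

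The 680 sites became 435 beyond 500 nt, 1062 outside genes at any distance, 253 if listed in all 4 tables, and 501 to 543 with a library left out. The median distance was 1191 to 1275 nt with a library left out. m6A peaks of at least 5-fold lay at 4 sites. CLIP peaks lay at 7 sites with both replicates, at 5 with a fold of at least 5, and at 11 to 15 with a peak replicate left out. Sites high in 1 library were 17 at a ratio of 10, 87 at a ratio of 3, and 4 among sites listed in all 4 tables. The cause of these shifts was not tested. The settings with whole reads or with at least 3 TPM in all 4 libraries, those leaving out a library for site number and distance or a peak replicate, and that of high sites in all 4 tables were chosen after seeing the data. At 3 TPM a site rests on 9.41 to 18.3 reads by the inferred read values, and 2 libraries per genotype limit all calls.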

Other observations

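Only 4 intergenic sites neighboured a gene that the authors' deposited table of RNA levels holds. The site chr4:17280320-17280323 on the plus strand was listed in Col0 only, at 8.21 and 9.94 TPM. It lay 205 nt from AT4G36648, which by its tags ran on the minus strand, towards the site. AT4G36648 stood at 49.3 and 52.4 FPKM in cpsf70, against 32.7 and 30.3 FPKM in Col0. The site chr5:1117088-1117094, 2843 nt past AT5G04120, had 1.46 and 4.33 TPM in cpsf70 and no listing in Col0, and that gene stood at 1.58 and 1.37 FPKM in cpsf70, against 0.272 and 0.435 FPKM in Col0. The site chr2:4484321-4484432 lay 288 nt before AT2G11270, which stood at 0.784 and 0.997 FPKM in cpsf70, against 0.271 and 0.116 FPKM in Col0, while the site was not called.

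Around SDS (AT1G14750), a meiotic cyclin gene, the tags in the gene itself summed to 3520 and 1480 TPM in cpsf70, against 4250 and 7460 TPM in Col0, the most of the 52 genes with an intergenic site past them on the same strand. Beyond the 680 sites, 293 sites between genes were listed in Col0 replicate 1 alone and 598 in Col0 replicate 2 alone, with values of up to 2150 and 421 TPM. The densest stretch of a megabase, on chromosome 5 from 26 to 27 Mb, held 21 of the 680 sites.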
